A study of Mus musculus with 12 samples.

Results

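Embryoid bodies without Smad4 (S4KO_D4) were set against embryoid bodies without Smad2 and Smad3 (S2/3DKO_D4) across all genes of an RNA-seq count table, using 4 of the 12 libraries of the series, chosen by their titles. Both groups were labelled as E14Tg2a.IV mouse embryonic stem cells after 4 days without LIF, the cytokine that keeps such cells undifferentiated. They grew as embryoid bodies, which are floating aggregates whose cells start to form the germ layers. S4KO_D4 carried a Smad4 knockout (n = 2 libraries) and S2/3DKO_D4 a knockout of both Smad2 and Smad3 (n = 2). The same 2 knockout lines before differentiation (S4KO_D0 and S2/3DKO_D0, 2 libraries each) and wild-type embryoid bodies (WT_D4, 2 libraries) give reference levels. Edited exons, number of clones and replicate origin were not given in these sources. The p-values therefore measure the spread between these libraries, part of which may be technical.

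Ligands of the TGF-beta superfamily bind receptor kinases that phosphorylate receptor Smads. Nodal, activin and TGF-beta act through Smad2 and Smad3, BMPs act through Smad1, Smad5 and Smad9, and the receptor Smads of both branches bind Smad4 as a shared partner on DNA. In the early mouse embryo, Nodal maintains the epiblast and induces the primitive streak, and BMP signals act in extraembryonic tissue and in mesoderm. The comparison addresses how the loss of the shared partner differs from the loss of the Nodal branch alone.

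Total counts were 50876757 and 31566376 in S4KO_D4, 55806858 and 50123451 in S2/3DKO_D4 and 53604809 and 51618920 in WT_D4. The unit of level is CPM, counts per 1000000 of the TMM-scaled library size, with replicate 1 given before replicate 2. The lines also differed in transcripts that do not belong to the pathway. Hprt, the purine-salvage gene that the parental E14Tg2a line lacks, had 171 and 169 CPM in S4KO_D4 and 0.182 and 0.403 CPM in S2/3DKO_D4, against 0.406 and 0.249 CPM in WT_D4. Mid1, an X-linked ubiquitin-ligase gene, had 1.13 and 35.1 CPM in S4KO_D4 and 504 and 489 CPM in S2/3DKO_D4, against 421 and 732 CPM in WT_D4. Several Y-linked genes were nearly absent in S2/3DKO_D4, as for Eif2s3y with 38.6 and 47.3 CPM in S4KO_D4, against 1.39 and 0 CPM in S2/3DKO_D4, and most of the residual counts lay in replicate 1. Xist, the RNA of X inactivation, had 7.7 and 5.97 CPM in S4KO_D4, against 81.9 and 115 CPM in S2/3DKO_D4. Before differentiation, Hprt already had 212 and 203 CPM in S4KO_D0, against 0.724 and 0.455 CPM in S2/3DKO_D0. The S4KO libraries thus held a transcript that the labelled parental line lacks, and its origin was not tested. Effects of these line differences and of the knockouts on other genes cannot be told apart. Between the 2 S4KO_D4 libraries the summed CPM of 18 naive pluripotency genes was 2856 and 1363, against 1439 and 1094 in S2/3DKO_D4, so replicate 1 of S4KO_D4 stood apart in this measure.

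At day 4 the knockouts differed widely. Of 18693 genes tested, 2298 were called at an adjusted p below 0.05, which is 12.3%, with 1092 higher in S4KO_D4 (5.84%) and 1206 lower (6.45%). The median log2 fold change of the calls was 1.49 among the higher genes and -1.995 among the lower ones, and 173 genes rose and 359 fell by at least 3 on that scale. The direction of the difference is S4KO_D4 over S2/3DKO_D4 throughout, and errors on log2 fold changes are standard errors. Against WT_D4, 323 genes were called in S4KO_D4 (1.73%) and 2842 in S2/3DKO_D4 (15.2%). These last 2 comparisons share the WT_D4 libraries, and each also shares its knockout libraries with the direct comparison. With 1 library left out, the direct comparison gave 1349 calls without S4KO_D4 replicate 1, 1050 without S4KO_D4 replicate 2, 747 without S2/3DKO_D4 replicate 1 and 632 without S2/3DKO_D4 replicate 2. S4KO_D4 against WT_D4 gave 78 calls without S4KO_D4 replicate 1, 578 without S4KO_D4 replicate 2, 115 without WT_D4 replicate 1 and 174 without WT_D4 replicate 2. S2/3DKO_D4 against WT_D4 gave 947 without S2/3DKO_D4 replicate 1, 868 without S2/3DKO_D4 replicate 2, 1558 without WT_D4 replicate 1 and 3040 without WT_D4 replicate 2. In bulk libraries, fewer cells of a type and less RNA per cell cannot be told apart.

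**Figure D1:**
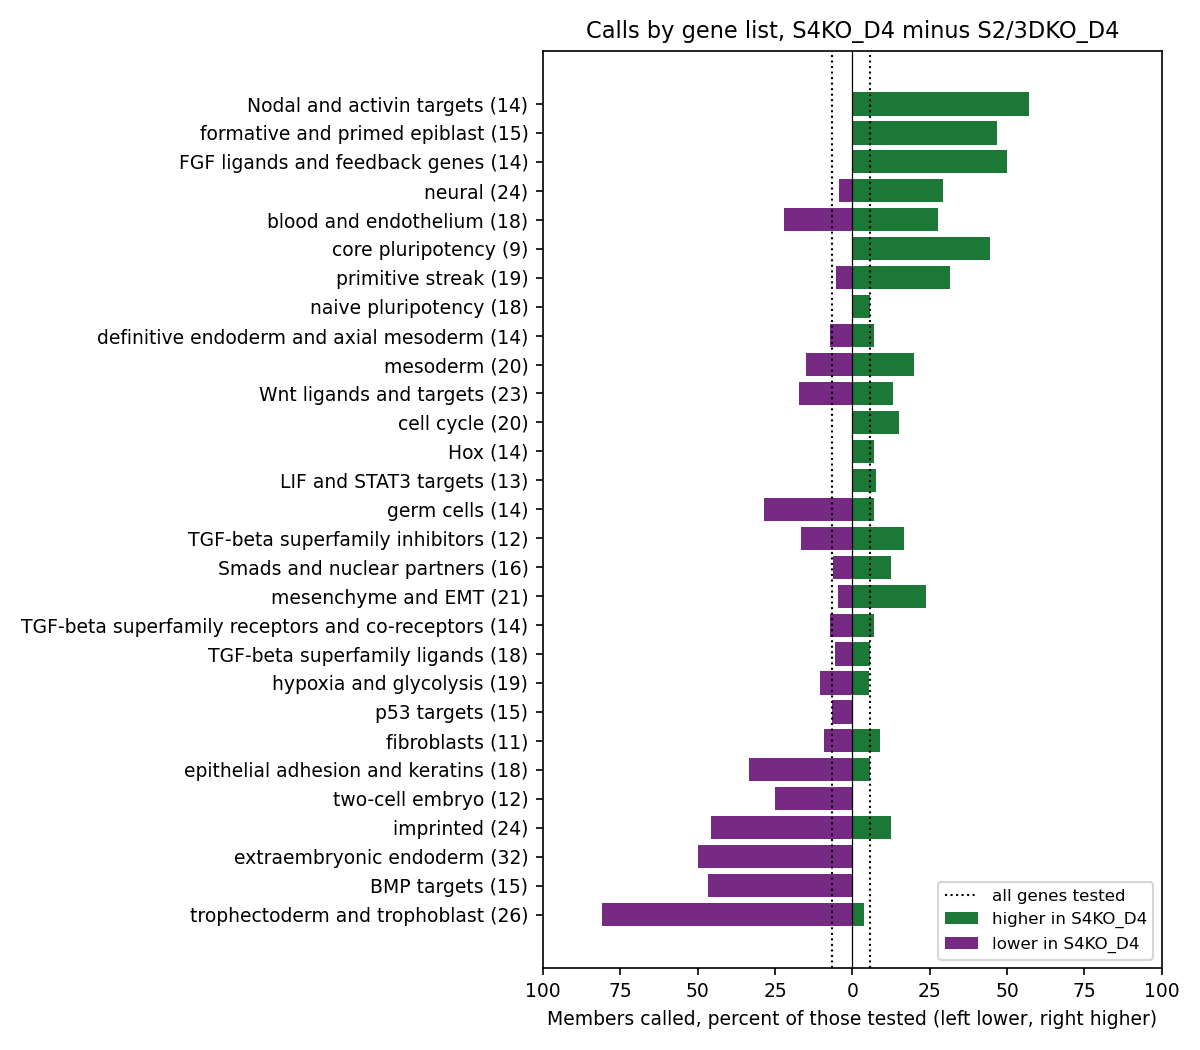
Members called higher (right, green) or lower (left, purple) in S4KO_D4 than in S2/3DKO_D4, as a percent of the members tested (number in brackets), with dotted lines at the 5.84% and 6.45% of all genes. Of the lists drawn, the trophectoderm and trophoblast list had 21 of 26 members lower and the Nodal and activin target list had 8 of 14 higher.

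Among the pathway components, few transcripts differed, and those of the targeted genes were still present. Smad4 (ENSMUSG00000024515, chromosome 18, 73639009 to 73703780, build mm10) had 121 and 144 CPM in S4KO_D4 and 174 and 159 CPM in S2/3DKO_D4, against 137 and 123 CPM in WT_D4, and did not pass (log2 fold change -0.33 ± 0.20, adjusted p = 0.313). Smad2 (ENSMUSG00000024563, chromosome 18, 76241580 to 76310963) had 86.3 and 82.1 CPM in S4KO_D4, against 48.3 and 46.7 CPM in S2/3DKO_D4 (log2 fold change 0.83 ± 0.25, adjusted p = 0.0548), and its groups did not overlap, as was the case for 67.9% of all genes tested. Smad3 (ENSMUSG00000032402, chromosome 9, 63646767 to 63757994) had 34.2 and 47.5 CPM in S4KO_D4, against 31.3 and 28.8 CPM in S2/3DKO_D4 (log2 fold change 0.44 ± 0.26, adjusted p = 0.291). Counts over a whole gene are no check of the edits, which can disrupt a protein and leave its RNA in place.

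Of the 18 ligand genes tested, 1 rose and 1 fell, a share near that of all genes. Gdf3, a Nodal-related ligand of the epiblast, had 50.8 and 29.4 CPM in S4KO_D4, against 19.9 and 15.3 CPM in S2/3DKO_D4 (log2 fold change 1.19 ± 0.30, adjusted p = 0.0251). Bmp8b, a BMP ligand known from extraembryonic ectoderm, had 1.08 and 1.96 CPM in S4KO_D4, against 12.6 and 15 CPM in S2/3DKO_D4 (log2 fold change -3.19 ± 0.39, adjusted p = 0.000733). Both pairs of groups were free of overlap, like 67.9% of all genes tested, and Bmp8b was the lower one in S4KO_D4. In deposited FPKM, Bmp8b had 0.441 and 0.687 in S4KO_D4 and 4.74 and 5.68 in S2/3DKO_D4, against 0.543 and 0.599 in WT_D4. S2/3DKO_D4 thus stood above both other groups for Bmp8b. Nodal itself had 35.6 and 17.4 CPM in S4KO_D4 and 12.9 and 9.44 CPM in S2/3DKO_D4, against 46.9 and 93.6 CPM in WT_D4 and did not pass (log2 fold change 1.25 ± 0.43, adjusted p = 0.0848). The Gdf3 call was lost without S4KO_D4 replicate 1 (adjusted p = 0.235), S2/3DKO_D4 replicate 1 (0.0989) or S2/3DKO_D4 replicate 2 (0.227).

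Of the 14 receptor and co-receptor genes, Bmpr1b, a type I BMP receptor, rose with 3.93 and 5.63 CPM in S4KO_D4, against 0.941 and 0.477 CPM in S2/3DKO_D4 (log2 fold change 2.74 ± 0.54, adjusted p = 0.00792). Tgfbr3, the co-receptor betaglycan, fell with 4.36 and 10.5 CPM in S4KO_D4, against 27 and 24.1 CPM in S2/3DKO_D4 (log2 fold change -1.79 ± 0.38, adjusted p = 0.0119). Bmpr1b lost its call without S2/3DKO_D4 replicate 2 (adjusted p = 0.0979) and Tgfbr3 without S2/3DKO_D4 replicate 1 (0.0606). The called share of the receptor list was 14.3%, near the 12.3% of all genes tested. Of the 16 Smads and nuclear partners, 2 rose and 1 fell, a called share of 18.8%. Smad1, a BMP receptor Smad on chromosome 8, had 22.6 and 29.1 CPM in S4KO_D4, against 13.2 and 12.8 CPM in S2/3DKO_D4 (log2 fold change 0.99 ± 0.24, adjusted p = 0.0216). Its call was lost without S4KO_D4 replicate 2 (0.144), S2/3DKO_D4 replicate 1 (0.147) or S2/3DKO_D4 replicate 2 (0.175). Skil, which encodes the Smad corepressor SnoN and is itself a target of the Nodal branch, had 342 and 353 CPM in S4KO_D4 and 113 and 101 CPM in S2/3DKO_D4, against 412 and 277 CPM in WT_D4 (log2 fold change 1.7 ± 0.30, adjusted p = 0.00456). Both S4KO_D4 libraries were near WT_D4 and both S2/3DKO_D4 libraries were lower. Without S2/3DKO_D4 replicate 2 the adjusted p of Skil was 0.0694.

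Inhibitors of the pathway moved in both directions, 2 higher and 2 lower of 12 tested, and the counts were the same when any 1 of the 4 libraries was left out. Lefty1 (ENSMUSG00000038793, chromosome 1, 180935022 to 180938400), a secreted inhibitor of Nodal, had 67 and 20.2 CPM in S4KO_D4 and 0.892 and 0.257 CPM in S2/3DKO_D4, against 41.4 and 111 CPM in WT_D4 (log2 fold change 6.23 ± 0.76, adjusted p = 0.000692). Its neighbour and paralogue Lefty2 had 66.8 and 17.9 CPM in S4KO_D4 and 2.39 and 0.147 CPM in S2/3DKO_D4, against 88.9 and 109.5 CPM in WT_D4 (log2 fold change 5.04 ± 0.97, adjusted p = 0.0072). Each S4KO_D4 library was above each S2/3DKO_D4 library for both genes, and S4KO_D4 replicate 1 was the higher of its pair. Lefty2 gave a log2 fold change of 8.13 without S2/3DKO_D4 replicate 1. Fstl3, a follistatin-like binder of activin, had 3.64 and 4.1 CPM in S4KO_D4, against 26.3 and 20.6 CPM in S2/3DKO_D4 (log2 fold change -2.6 ± 0.43, adjusted p = 0.00362). The called share of the inhibitor list was 33.3%, beside 12.3% of all genes tested.

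BMP targets were lower in S4KO_D4. Of 15 tested, 7 fell and 0 rose, against 6.45% of all genes lower, and the median log2 fold change over the 15 was -2.76, against 0.037 over all genes tested. Each BMP target call that passed survived when any 1 library was left out. The promoters of Gata2, Gata3, Msx2, Smad9 and Id2, the called targets matched in the promoter table, are shown as RefSeq gives them (GRCm38.p6), 300 bases around an annotated start on the gene's strand. They are Gata2 at its downstream start (chr6:88198414-88198713, plus strand), Gata3 (chr2:9878551-9878850, minus strand), Msx2 (chr13:53472731-53473030, minus strand), Smad9 (chr3:54755332-54755631, plus strand) and Id2 (chr12:25096043-25096342, minus strand). Capitals mark, on either strand, GGCGCC and GGAGCC, which are GC-rich elements bound by BMP Smads, and CAGAC, the core Smad box. The palindrome GTCTAGAC and the Foxh1-type motif AATCCACA were searched too and are in none of the 5 windows, and no motif of the 5 contains another.
Gata2: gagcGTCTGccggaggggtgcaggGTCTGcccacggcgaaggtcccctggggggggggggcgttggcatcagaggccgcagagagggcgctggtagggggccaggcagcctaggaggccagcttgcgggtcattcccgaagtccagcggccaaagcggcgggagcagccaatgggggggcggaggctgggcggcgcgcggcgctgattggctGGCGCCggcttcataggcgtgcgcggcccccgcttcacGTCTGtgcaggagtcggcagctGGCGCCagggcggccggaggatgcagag
Gata3: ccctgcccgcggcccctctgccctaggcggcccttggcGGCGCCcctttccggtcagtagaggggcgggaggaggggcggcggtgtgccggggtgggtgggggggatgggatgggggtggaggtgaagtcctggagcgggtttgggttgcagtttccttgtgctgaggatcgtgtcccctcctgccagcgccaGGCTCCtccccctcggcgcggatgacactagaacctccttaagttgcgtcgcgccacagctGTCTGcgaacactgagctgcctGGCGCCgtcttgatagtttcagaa
Msx2: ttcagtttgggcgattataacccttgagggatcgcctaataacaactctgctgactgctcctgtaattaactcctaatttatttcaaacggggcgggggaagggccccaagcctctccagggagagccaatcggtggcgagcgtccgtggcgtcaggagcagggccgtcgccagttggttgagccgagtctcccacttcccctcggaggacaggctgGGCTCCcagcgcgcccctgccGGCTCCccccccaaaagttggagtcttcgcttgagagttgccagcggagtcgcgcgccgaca
Smad9: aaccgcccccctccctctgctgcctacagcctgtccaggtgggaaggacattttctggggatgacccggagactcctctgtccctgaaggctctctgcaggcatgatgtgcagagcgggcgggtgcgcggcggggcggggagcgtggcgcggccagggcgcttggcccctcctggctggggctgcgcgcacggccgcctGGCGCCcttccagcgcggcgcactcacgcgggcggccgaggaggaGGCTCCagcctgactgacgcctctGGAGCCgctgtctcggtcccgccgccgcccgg
Id2: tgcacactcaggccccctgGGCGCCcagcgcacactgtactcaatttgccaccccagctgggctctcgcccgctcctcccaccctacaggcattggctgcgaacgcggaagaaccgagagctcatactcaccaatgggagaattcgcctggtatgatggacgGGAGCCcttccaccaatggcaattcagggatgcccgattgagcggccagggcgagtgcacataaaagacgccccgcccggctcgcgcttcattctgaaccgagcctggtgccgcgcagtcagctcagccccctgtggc
GGCGCC occurs in the windows of Gata2, Gata3, Smad9 and Id2 and in 11.9% of all 32851 promoters of this length. GGAGCC occurs in those of Gata3, Msx2, Smad9 and Id2 and in 30.9% of all, and CAGAC in those of Gata2 and Gata3 and in 49.6% of all. The window at the upstream Gata2 start (chr6:88193641-88193940) holds none of the 5. The 2 motifs found in no window are in 0.213% (GTCTAGAC) and 0.855% (AATCCACA) of all. The GC content of the 5 windows shown ran from 61% (Msx2) to 73.7% (Gata2 and Smad9), and the shares of all promoters were not matched for it. A match is a description of the letters and not of binding.

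Id1 and Id2, inhibitors of bHLH factors and direct BMP targets, were both low. Id1 (ENSMUSG00000042745, chromosome 2, 152736251 to 152737410) had 2.62 and 4.88 CPM in S4KO_D4 and 40.1 and 39.3 CPM in S2/3DKO_D4, against 11 and 29.3 CPM in WT_D4 (log2 fold change -3.41 ± 0.46, adjusted p = 0.00126). Id2 (ENSMUSG00000020644, chromosome 12, 25093799 to 25097140) had 7.51 and 12.6 CPM in S4KO_D4 and 66.5 and 69.4 CPM in S2/3DKO_D4, against 12.5 and 12.3 CPM in WT_D4 (log2 fold change -2.76 ± 0.28, adjusted p = 0.000264). For Id1 the S4KO_D4 libraries lay below both of the other groups, while for Id2 they lay near WT_D4 and S2/3DKO_D4 was the group that stood out. Id3 had 6.49 and 16 CPM in S4KO_D4, against 39.9 and 35.2 CPM in S2/3DKO_D4 and did not pass (log2 fold change -1.74 ± 0.66, adjusted p = 0.109). Its groups did not overlap, as was the case for 67.9% of all genes tested.

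Gata2, Gata3 and Hand1 followed the pattern of Id2. Gata2, a zinc-finger factor of trophoblast and blood, had 1.68 and 3.08 CPM in S4KO_D4 and 119.7 and 138 CPM in S2/3DKO_D4, against 0.682 and 1.51 CPM in WT_D4 (log2 fold change -5.77 ± 0.48, adjusted p = 9.81e-05). Gata3 had 1.26 and 3.42 CPM in S4KO_D4 and 38.1 and 29.8 CPM in S2/3DKO_D4, against 0.701 and 0.939 CPM in WT_D4 (log2 fold change -3.87 ± 0.47, adjusted p = 0.000711). Hand1, a bHLH factor of trophoblast and heart, had 0.396 and 1.15 CPM in S4KO_D4 and 66.3 and 68.3 CPM in S2/3DKO_D4, against 0.682 and 1.86 CPM in WT_D4 (log2 fold change -6.49 ± 1.02, adjusted p = 0.00276). In these 3, each S2/3DKO_D4 library was above every S4KO_D4 and WT_D4 library. Msx2, a homeobox target of BMP, had 1.08 and 1.12 CPM in S4KO_D4 and 11.7 and 11.7 CPM in S2/3DKO_D4, against 2.51 and 2.8 CPM in WT_D4 (log2 fold change -3.41 ± 0.34, adjusted p = 0.000202). Smad9, a BMP receptor Smad that BMP also induces, had 0.245 and 0.187 CPM in S4KO_D4, against 2.34 and 1.78 CPM in S2/3DKO_D4 (log2 fold change -3.22 ± 0.49, adjusted p = 0.00218). Against WT_D4, 0 of the 15 were higher and 2 lower in S4KO_D4, beside 0.679% and 1.05% of all genes. In S2/3DKO_D4, 7 were higher and 1 lower than in WT_D4, beside 7.21% and 8% of all genes. Gata2, Gata3, Hand1 and Id2 also stand on the trophoblast list.

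**Figure D2:**
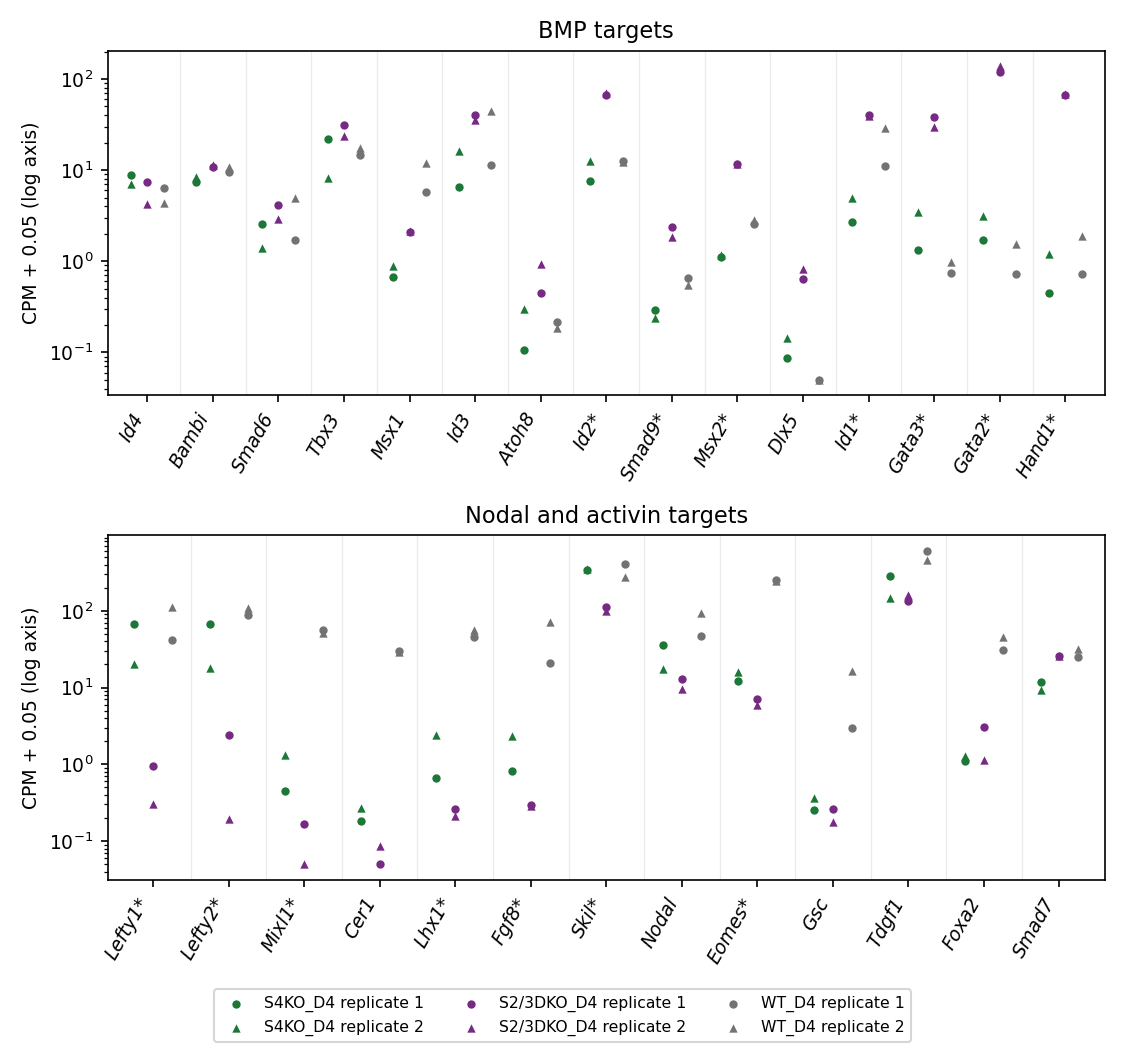
Levels of BMP targets (top) and of Nodal and activin targets (bottom) in every library, as CPM + 0.05 on a log axis; circles are replicate 1, triangles replicate 2, and an asterisk marks a gene called between S4KO_D4 and S2/3DKO_D4. Gata2, Gata3 and Hand1 are high in S2/3DKO_D4 alone, while Lefty1, Lefty2 and Skil lie lowest in S2/3DKO_D4.

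Nodal and activin targets moved the other way. Of 14 tested, 8 rose and 0 fell, against 5.84% of all genes higher, with a median log2 fold change of 2.16. Beside Lefty1, Lefty2 and Skil, 4 streak genes rose but stayed far below WT_D4 in both knockouts. Eomes, a T-box gene active as the streak forms, had 12.2 and 15.8 CPM in S4KO_D4 and 7.15 and 5.92 CPM in S2/3DKO_D4, against 249 and 241 CPM in WT_D4 (log2 fold change 1.1 ± 0.25, adjusted p = 0.0158). Mixl1 had 0.396 and 1.27 CPM in S4KO_D4 and 0.116 and 0 CPM in S2/3DKO_D4, against 56.7 and 51.8 CPM in WT_D4 (log2 fold change 3.69 ± 0.87, adjusted p = 0.0189). Lhx1 had 0.623 and 2.33 CPM in S4KO_D4 and 0.215 and 0.165 CPM in S2/3DKO_D4, against 45.4 and 55.8 CPM in WT_D4 (log2 fold change 2.91 ± 0.71, adjusted p = 0.0244). Fgf8 had 0.774 and 2.3 CPM in S4KO_D4 and 0.248 and 0.238 CPM in S2/3DKO_D4, against 20.7 and 72.2 CPM in WT_D4 (log2 fold change 2.62 ± 0.71, adjusted p = 0.0341). In all 4 the level of S4KO_D4 was nearer to S2/3DKO_D4 than to WT_D4. The number of targets called higher was 8 without S4KO_D4 replicate 1, 4 without S4KO_D4 replicate 2, 5 without S2/3DKO_D4 replicate 1 and 3 without S2/3DKO_D4 replicate 2. The calls of Eomes, Mixl1, Lhx1 and Fgf8 were each lost without S4KO_D4 replicate 2 and without S2/3DKO_D4 replicate 2, at adjusted p up to 0.166, 0.12, 0.165 and 0.229. Without S2/3DKO_D4 replicate 1 those of Eomes (0.0773), Lhx1 (0.119) and Fgf8 (0.16) were lost too, and those of Mixl1, Lhx1 and Fgf8 in limma on log2(FPKM + 1) (0.162, 0.195 and 0.187). Against WT_D4, 7 of the 14 were lower in S4KO_D4 and 13 in S2/3DKO_D4, beside 1.05% and 8% of all genes.

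The trophectoderm and trophoblast list showed the broadest difference of the cell type lists. Of 27 listed, 26 passed the filter on low counts, 21 fell in S4KO_D4 and 1 rose, with a median log2 fold change of -3.84, and the count of lower genes was 18 without S4KO_D4 replicate 1, 16 without S4KO_D4 replicate 2, 17 without S2/3DKO_D4 replicate 1 and 17 without S2/3DKO_D4 replicate 2. Summed over the list, the level was 1003 and 1134 CPM in S4KO_D4 and 10428 and 15929 CPM in S2/3DKO_D4, against 1396 and 1446 CPM in WT_D4. Plac1, an X-linked placental gene, had 0.302 and 0.218 CPM in S4KO_D4 and 56.2 and 74.8 CPM in S2/3DKO_D4, against 0.553 and 0.326 CPM in WT_D4 (log2 fold change -7.93 ± 0.61, adjusted p = 6.29e-05). Pparg, a nuclear receptor of trophoblast and fat, had 0.245 and 0 CPM in S4KO_D4 and 27.5 and 37.4 CPM in S2/3DKO_D4, against 0.129 and 0.172 CPM in WT_D4 (log2 fold change -7.81 ± 0.86, adjusted p = 0.000579). Syna, which encodes the fusogen syncytin-A, had 0.415 and 0.373 CPM in S4KO_D4 and 30.2 and 30.2 CPM in S2/3DKO_D4, against 0.295 and 0.421 CPM in WT_D4 (log2 fold change -6.24 ± 0.45, adjusted p = 4.95e-05). All 3 were near 0 in S4KO_D4 and in WT_D4, and none overlapped, like 67.9% of all genes tested. With Hand1 and Gata2 these are the 5 largest changes of the list among genes of at least 5 CPM. The riser was Eomes, which is on the streak list as well. The called share of the trophoblast list was 84.6%, beside 12.3% of all genes tested. Against WT_D4, 1 member was higher and 1 lower in S4KO_D4, beside 0.679% and 1.05% of all genes. In S2/3DKO_D4, 21 were higher and 1 lower than in WT_D4, beside 7.21% and 8% of all genes.

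Placental gene families, chosen after their values were seen, had lower summed levels in S4KO_D4 than in S2/3DKO_D4, by differing amounts. The 26 prolactin-family genes in the table had 0 counts in both S4KO_D4 libraries, and summed to 17.5 and 48.2 CPM in S2/3DKO_D4, where 19 of them had a count. Since 14 passed the filter on low counts, mostly through S2/3DKO_D4, the 10 called lower are a description. Prl3d1, a placental lactogen gene of trophoblast giant cells, had 0 counts in S4KO_D4 and 2.89 and 5.28 CPM in S2/3DKO_D4. Its call was lost without S4KO_D4 replicate 1 (adjusted p = 0.0677), S4KO_D4 replicate 2 (0.0625) or S2/3DKO_D4 replicate 2 (0.0826), and in DESeq2 (0.189). The 7 Serpinb9 genes were all lower and summed to 4.0 and 5.07 CPM in S4KO_D4, against 190.1 and 206 CPM in S2/3DKO_D4. The 8 placental cathepsin genes summed to 0.113 and 0 CPM in S4KO_D4, against 8.83 and 14.9 CPM in S2/3DKO_D4. The 15 Ceacam genes summed to 18.4 and 6.78 CPM in S4KO_D4, against 25.5 and 27.4 CPM in S2/3DKO_D4, with 3 of 9 tested called lower. The 13 genes of pregnancy-specific glycoproteins summed to 0.415 and 0.342 CPM in S4KO_D4, against 3.86 and 3.94 CPM in S2/3DKO_D4, with 2 of 3 called lower. Among all genes tested, 6.45% were called lower. Serpinb9c, Serpinb9d, Serpinb9g, Ceacam15, Psg22, Psg29 and the tested cathepsins had 0 counts in S4KO_D4. They passed the filter mostly through S2/3DKO_D4, so the lower calls in these families are likewise a description. Ceacam16, Ceacam18 and Psg16 had fitted values above 0 and were not called. Within each family the genes are close paralogues, so reads may be placed on the wrong member. The prolactin sum of S2/3DKO_D4 replicate 2 was the higher of its pair. WT_D4 summed to 0.0369 and 0 CPM for the prolactin family and 5.48 and 4.54 CPM for Serpinb9. Its sums were 0.111 and 0.0575 CPM for the cathepsins, 6.53 and 6.65 CPM for Ceacam and 0.682 and 0.402 CPM for pregnancy-specific glycoproteins. Apart from Ceacam in replicate 1, S4KO_D4 was thus near WT_D4, and S2/3DKO_D4 was the high group.

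**Figure D3:**
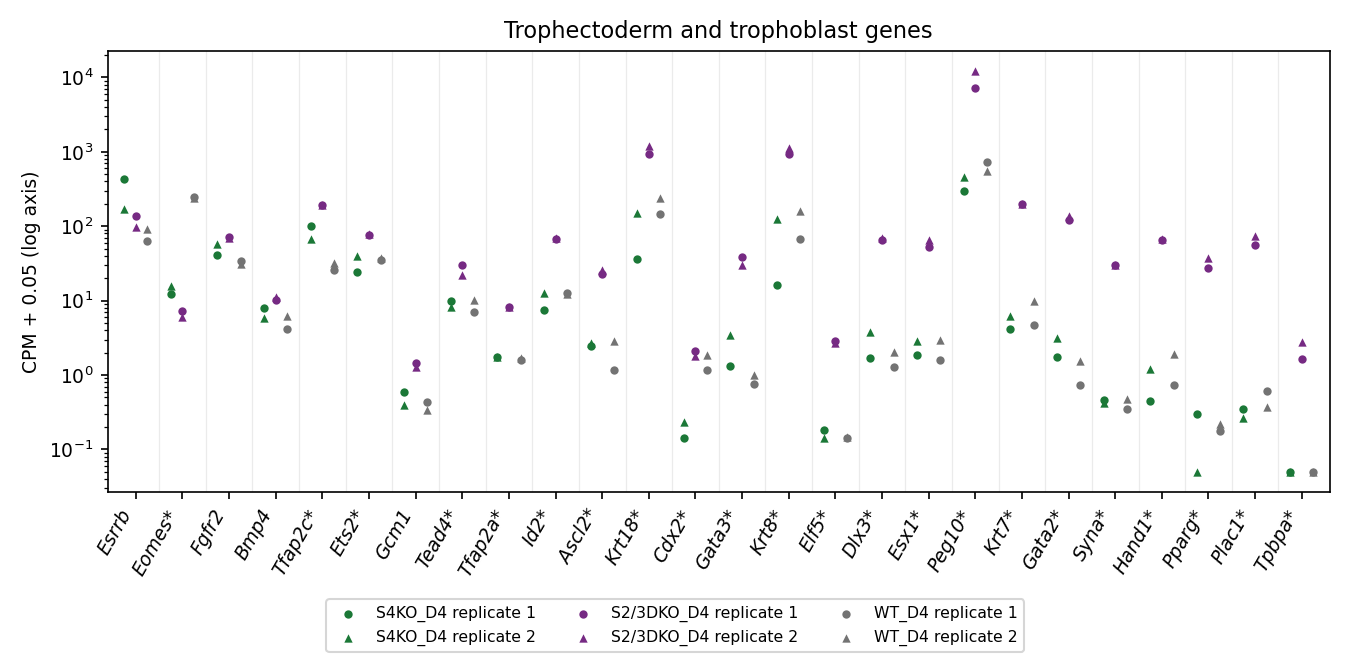
Level of each trophectoderm and trophoblast gene tested in every library, as CPM + 0.05 on a log axis; circles are replicate 1, triangles replicate 2, and an asterisk marks a gene called between S4KO_D4 and S2/3DKO_D4. Apart from Esrrb, Eomes and Cdx2, both S2/3DKO_D4 points of a gene stand above those of both other groups.

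Genes of extraembryonic endoderm, the tissue that lines the yolk sac, were also lower in S4KO_D4. Of 32 tested, 16 fell and 0 rose, a called share of 50% beside 12.3% of all genes tested. Their median log2 fold change was -2.01, and 12 of 28 were lower without chromosomes 8, X and Y. Lama1, a laminin of basement membrane, had 39.9 and 37.7 CPM in S4KO_D4 and 221 and 204 CPM in S2/3DKO_D4, against 141 and 195 CPM in WT_D4 (log2 fold change -2.45 ± 0.24, adjusted p = 0.000195). Pdgfra, a receptor of primitive endoderm, had 4.0 and 4.54 CPM in S4KO_D4 and 27.4 and 21.1 CPM in S2/3DKO_D4, against 34.9 and 28.3 CPM in WT_D4 (log2 fold change -2.51 ± 0.38, adjusted p = 0.00212). Srgn, a proteoglycan gene, had 3.4 and 3.79 CPM in S4KO_D4 and 20.8 and 17.7 CPM in S2/3DKO_D4, against 60.4 and 51.8 CPM in WT_D4 (log2 fold change -2.42 ± 0.31, adjusted p = 0.000999). In all 3 the S4KO_D4 libraries were the lowest, and WT_D4 lay well above them. Afp and Cubn, picked after their values were seen, were far below WT_D4 in both knockouts. In deposited FPKM, Afp had 0 and 1.47 in S4KO_D4 and 0.792 and 2.11 in S2/3DKO_D4, against 25.6 and 21.2 in WT_D4. Cubn had 1.26 and 1.33 in S4KO_D4 and 6.2 and 3.35 in S2/3DKO_D4, against 33.1 and 26.5 in WT_D4. Plat, the tissue plasminogen activator gene on chromosome 8, had 2.27 and 5.47 CPM in S4KO_D4, against 35.2 and 34.8 CPM in S2/3DKO_D4 (log2 fold change -3.19 ± 0.69, adjusted p = 0.0129). Cited1, an X-linked coactivator gene, had 1.09 and 3.58 CPM in S4KO_D4, against 20.1 and 20 CPM in S2/3DKO_D4 (log2 fold change -3.12 ± 0.76, adjusted p = 0.0217). The endoderm regulators Gata4 (-2.21 ± 0.29) and Gata6 (-2.37 ± 0.50), picked after their values were seen, fell too. Plat lost its call without S4KO_D4 replicate 1 (adjusted p = 0.0771), Cited1 without S4KO_D4 replicate 1 (0.109), S2/3DKO_D4 replicate 1 (0.066) or S2/3DKO_D4 replicate 2 (0.074), and Gata6 without S4KO_D4 replicate 2 (0.0814) or S2/3DKO_D4 replicate 1 (0.0687). The count of lower genes was 10 without S4KO_D4 replicate 1, 16 without S4KO_D4 replicate 2, 9 without S2/3DKO_D4 replicate 1 and 11 without S2/3DKO_D4 replicate 2. Against WT_D4, 17 of the 32 were lower in S4KO_D4 and 0 higher, beside 1.05% and 0.679% of all genes. In S2/3DKO_D4, 9 were lower and 2 higher than in WT_D4, beside 8% and 7.21% of all genes.

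Primitive streak genes were at low levels in both knockouts. The 19 tested of 20 listed summed to 100.3 and 72.5 CPM in S4KO_D4 and 78.5 and 68.9 CPM in S2/3DKO_D4, against 569 and 691 CPM in WT_D4. T (brachyury), the streak marker, singled out after its values were seen, had 0.415 and 3.39 CPM in S4KO_D4 and 0.281 and 0.367 CPM in S2/3DKO_D4, against 103 and 124 CPM in WT_D4, and did not pass (log2 fold change 2.5 ± 0.88, adjusted p = 0.0873). It passed without S4KO_D4 replicate 1 (3.33, adjusted p = 0.0156), with no filter on low counts (0.00689) and with length and GC correction (0.0497), and its log2 fold change was 0.36 without S4KO_D4 replicate 2 (adjusted p = 0.874). Between the knockouts, 6 rose and 1 fell, a called share of 36.8% beside 12.3% of all genes tested. Fgf17 had 2.19 and 2.49 CPM in S4KO_D4, against 0.347 and 0.275 CPM in S2/3DKO_D4 (log2 fold change 2.9 ± 0.84, adjusted p = 0.0446), and Nkx1-2 had 0.283 and 0.435 CPM in S4KO_D4, against 0.033 and 0.0367 CPM in S2/3DKO_D4 (log2 fold change 3.26 ± 0.73, adjusted p = 0.0159). Cdx2, a caudal homeobox gene shared with trophectoderm, had 0.0944 and 0.187 CPM in S4KO_D4, against 2.05 and 1.78 CPM in S2/3DKO_D4 (log2 fold change -3.8 ± 0.90, adjusted p = 0.0194). The count of higher genes was 6 without S4KO_D4 replicate 1, 0 without S4KO_D4 replicate 2, 1 without S2/3DKO_D4 replicate 1 and 0 without S2/3DKO_D4 replicate 2, and Cdx2 lost its call without any 1 of the 4 libraries (adjusted p up to 0.111). Fgf17 was lost likewise (up to 0.224), and Nkx1-2 without S4KO_D4 replicate 2 (0.0735), S2/3DKO_D4 replicate 1 (0.132) or S2/3DKO_D4 replicate 2 (0.122). Against WT_D4, 11 of the 19 were lower in S4KO_D4 and 12 in S2/3DKO_D4, beside 1.05% and 8% of all genes. Of 14 definitive endoderm and axial mesoderm genes 1 rose (Lhx1) and 1 fell (Gata6), a called share of 14.3%, near the 12.3% of all genes tested.

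Mesoderm genes split, with 4 higher and 3 lower of 20 tested, a called share of 35% beside 12.3% of all genes tested. Lef1, a nuclear effector of Wnt signals, had 25.2 and 30.6 CPM in S4KO_D4 and 5.09 and 4.69 CPM in S2/3DKO_D4, against 33.4 and 38.5 CPM in WT_D4 (log2 fold change 2.51 ± 0.40, adjusted p = 0.00293), and the mesodermal factors Twist1 (1.9 ± 0.40), Tcf15 (2.18 ± 0.55) and Tbx20 (2.19 ± 0.61) also rose. The 3 that fell were Hand1, Pdgfra and Gata4, which are shared with the extraembryonic lists. Twist1 was lost without S2/3DKO_D4 replicate 2 (adjusted p = 0.139), Tcf15 without S4KO_D4 replicate 1 (0.112) or either S2/3DKO_D4 library (0.144 and 0.15), and Tbx20 without S4KO_D4 replicate 2 (0.293) or either S2/3DKO_D4 library (0.184 and 0.231).

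Of 18 blood and endothelium genes, 5 rose and 4 fell, a called share of 50% beside 12.3% of all genes tested. Tal1, a master regulator of blood, had 2.02 and 5.29 CPM in S4KO_D4 and 0.165 and 0.128 CPM in S2/3DKO_D4, against 0.737 and 1.03 CPM in WT_D4 (log2 fold change 4.6 ± 0.61, adjusted p = 0.00111). Its partner gene Lmo2 had 1.13 and 1.87 CPM in S4KO_D4, against 0.248 and 0.128 CPM in S2/3DKO_D4 (log2 fold change 2.96 ± 0.52, adjusted p = 0.005). Cdh5, the endothelial cadherin gene on chromosome 8, had 1.15 and 3.2 CPM in S4KO_D4 and 47.2 and 37.9 CPM in S2/3DKO_D4, against 0.277 and 0.421 CPM in WT_D4 (log2 fold change -4.31 ± 0.69, adjusted p = 0.00305), with S2/3DKO_D4 standing above both other groups. Sox18 (3.07 ± 0.78), Etv2 (2.35 ± 0.64) and Cd34 (1.54 ± 0.41) were the other genes that rose, and Gata2, Gata1 (-2.2 ± 0.40) and Esam (-1.92 ± 0.41) fell with Cdh5. Those under 5 CPM (Tal1, Lmo2, Sox18, Etv2 and Gata1) were named after their values were seen. Without S2/3DKO_D4 replicate 2 the adjusted p was 0.0729 for Lmo2, 0.167 for Sox18, 0.24 for Etv2, 0.0601 for Cd34 and 0.0812 for Esam. Sox18, Etv2, Cd34 and Esam were lost as well without S4KO_D4 replicate 2 (0.142, 0.179, 0.211 and 0.081) or S2/3DKO_D4 replicate 1 (0.173, 0.0785, 0.259 and 0.0657).

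Of 24 neural genes tested, 7 were higher in S4KO_D4 and 1 was lower, a called share of 33.3% beside 12.3% of all genes tested. Their median log2 fold change was 1.17. Without chromosomes 8, X and Y, 4 of 19 were higher and 0 lower. Pax6, a homeobox regulator of neural progenitors and eye, had 19 and 15.1 CPM in S4KO_D4 and 1.54 and 1.03 CPM in S2/3DKO_D4, against 1.33 and 1.09 CPM in WT_D4 (log2 fold change 3.73 ± 0.55, adjusted p = 0.00189). Sox1, an early neural marker on chromosome 8, had 7.78 and 24.4 CPM in S4KO_D4 and 1.06 and 0.697 CPM in S2/3DKO_D4, against 0.571 and 0.345 CPM in WT_D4 (log2 fold change 4.19 ± 0.61, adjusted p = 0.00189). Both S4KO_D4 libraries were above all 4 others for each gene. Sox3 had 3.72 and 14 CPM in S4KO_D4 and 0.594 and 0.367 CPM in S2/3DKO_D4, against 6.21 and 16.7 CPM in WT_D4 (log2 fold change 4.19 ± 0.75, adjusted p = 0.00532). For Sox3, S2/3DKO_D4 was the group that stood apart, below the other 2. Gbx2 (3.17 ± 0.85), Pou3f2 (3.6 ± 0.78) and Nes (1.64 ± 0.40) rose as well, and Irx3 fell (-2.15 ± 0.57). Against WT_D4, 3 of the list were higher and 0 lower in S4KO_D4, beside 0.679% and 1.05% of all genes. In S2/3DKO_D4, 1 was higher and 5 lower than in WT_D4, beside 7.21% and 8% of all genes. The count of higher genes was 8 without S4KO_D4 replicate 1, 4 without S4KO_D4 replicate 2, 4 without S2/3DKO_D4 replicate 1 and 2 without S2/3DKO_D4 replicate 2. Sox3 was lost without S2/3DKO_D4 replicate 2 (adjusted p = 0.06). Gbx2 and Irx3 were lost without any 1 of the 4 libraries (up to 0.194 and 0.146), and Pou3f2 and Nes without S4KO_D4 replicate 2 (0.0796 and 0.24) or either S2/3DKO_D4 library (up to 0.16 and 0.183).

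Genes of the formative and primed epiblast were higher, 7 of 15 tested and 0 lower, with a median log2 fold change of 1.57. The called share was 46.7%, beside 12.3% of all genes tested. Fgf15, an epiblast and neural FGF gene, had 5.76 and 11.4 CPM in S4KO_D4 and 1.16 and 0.916 CPM in S2/3DKO_D4, against 27 and 31 CPM in WT_D4 (log2 fold change 3.04 ± 0.36, adjusted p = 0.000579). Fgf5, the classical marker of this state, had 8.84 and 98.9 CPM in S4KO_D4 and 2.77 and 2.8 CPM in S2/3DKO_D4, against 189 and 167 CPM in WT_D4 (log2 fold change 4.27 ± 0.98, adjusted p = 0.0171). The 2 S4KO_D4 libraries were far apart for Fgf5, and both were above S2/3DKO_D4. Lef1, the N-cadherin gene Cdh2 (2.35 ± 0.54), Lin28b (2.13 ± 0.41), Sox4 (1.87 ± 0.35) and Etv4 (1.5 ± 0.39) made up the rest. Against WT_D4, 1 of the 15 was lower in S4KO_D4 and 13 in S2/3DKO_D4, beside 1.05% and 8% of all genes. The list had 3 genes called without S4KO_D4 replicate 2, 2 without S2/3DKO_D4 replicate 1 and 2 without S2/3DKO_D4 replicate 2, against 9 without S4KO_D4 replicate 1. Without S4KO_D4 replicate 2, Fgf5 (adjusted p = 0.197), Cdh2 (0.103), Lin28b (0.0626) and Sox4 (0.063) were lost. Etv4 was lost without S4KO_D4 replicate 1 (0.189). Without S2/3DKO_D4 replicate 1 Fgf5, Cdh2, Lin28b, Sox4 and Etv4 were lost at 0.117, 0.144, 0.0834, 0.0751 and 0.163, and without S2/3DKO_D4 replicate 2 at 0.124, 0.053, 0.0527, 0.0517 and 0.15.

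Core pluripotency genes were higher in 4 of 9 cases and lower in 0, a called share of 44.4% beside 12.3% of all genes tested. Pou5f1, which encodes Oct4, had 569 and 408 CPM in S4KO_D4 and 169 and 139.8 CPM in S2/3DKO_D4, against 430.3 and 906 CPM in WT_D4 (log2 fold change 1.66 ± 0.33, adjusted p = 0.00835). Sox2 had 323 and 287 CPM in S4KO_D4 and 157 and 108 CPM in S2/3DKO_D4, against 187 and 179 CPM in WT_D4 (log2 fold change 1.2 ± 0.31, adjusted p = 0.0283), and Nanog, shared with the naive list, had 342 and 205 CPM in S4KO_D4, against 164 and 137 CPM in S2/3DKO_D4 (log2 fold change 0.86 ± 0.24, adjusted p = 0.0395). Of 18 naive pluripotency genes Nanog alone was called, and Esrrb (432 and 168 CPM in S4KO_D4, against 139 and 99.1 CPM in S2/3DKO_D4) and Zfp42 (376 and 168 CPM in S4KO_D4, against 121 and 95.5 CPM in S2/3DKO_D4) did not pass (adjusted p = 0.0839 and 0.0879). S4KO_D4 replicate 1 held the highest level of both, and without S4KO_D4 replicate 2 Esrrb passed (0.0317). Leaving out S4KO_D4 replicate 1 gave an adjusted p of 0.0513 for Pou5f1, 0.125 for Sox2 and 0.406 for Nanog, and leaving out S2/3DKO_D4 replicate 2 gave 0.0822, 0.246 and 0.312. Sox2 was lost too without S4KO_D4 replicate 2 (0.0779), and Sox2 and Nanog without S2/3DKO_D4 replicate 1 (0.0693 and 0.159).

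FGF ligands and feedback genes were higher in 7 of 14 cases and lower in 0, with a median log2 fold change of 1.48. Their called share was 50%, beside 12.3% of all genes tested. Beside Fgf5, Fgf15, Fgf8, Fgf17 and Etv4, the ERK phosphatase gene Dusp6 had 43.4 and 84.8 CPM in S4KO_D4 and 24.1 and 18.4 CPM in S2/3DKO_D4, against 129.8 and 133 CPM in WT_D4 (log2 fold change 1.59 ± 0.44, adjusted p = 0.0369) and Spry1 had 27.9 and 39.9 CPM in S4KO_D4 and 18.7 and 13.3 CPM in S2/3DKO_D4, against 44.5 and 56.8 CPM in WT_D4 (log2 fold change 1.08 ± 0.31, adjusted p = 0.045). The count was 4 without S4KO_D4 replicate 1, 2 without S4KO_D4 replicate 2, 1 without S2/3DKO_D4 replicate 1 and 1 without S2/3DKO_D4 replicate 2, with Dusp6 at up to 0.252 and Spry1 at up to 0.31. Of 23 Wnt ligands and targets, 3 rose and 4 fell, a called share of 30.4% beside 12.3% of all genes tested. Dkk1, a secreted Wnt inhibitor, had 0.472 and 0.684 CPM in S4KO_D4 and 4.36 and 5.63 CPM in S2/3DKO_D4, against 9.96 and 10.2 CPM in WT_D4 (log2 fold change -3.12 ± 0.56, adjusted p = 0.00512). The ligand genes Wnt6 (-3.23 ± 0.68), Wnt4 (-2.77 ± 0.70) and Wnt7b (-1.93 ± 0.41) fell, and Notum (2.48 ± 0.65) and Ccnd1 (1.32 ± 0.37) rose with Lef1. Each of the calls of Wnt6, Wnt4, Wnt7b, Notum and Ccnd1 was lost with S2/3DKO_D4 replicate 2 left out (adjusted p = 0.0543, 0.131, 0.0516, 0.175 and 0.223) and with S4KO_D4 replicate 1 left out (0.0583, 0.0645, 0.0579, 0.25 and 0.0529). Wnt4, Wnt7b, Notum and Ccnd1 were lost too without S2/3DKO_D4 replicate 1 (0.0547, 0.0606, 0.153 and 0.163), and Wnt7b and Ccnd1 without S4KO_D4 replicate 2 (0.0617 and 0.234).

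Imprinted genes, expressed from 1 parental copy, were lower in 11 of 24 cases and higher in 3, with a median log2 fold change of -1.55. Their called share was 58.3%, beside 12.3% of all genes tested. Summed over the list the level was 2059 and 2934 CPM in S4KO_D4 and 18004 and 25374 CPM in S2/3DKO_D4, against 3366 and 3002 CPM in WT_D4. H19 (ENSMUSG00000000031, chromosome 7, 142575529 to 142578143), a non-coding RNA, had 98.1 and 176 CPM in S4KO_D4 and 7155 and 8828 CPM in S2/3DKO_D4, against 80 and 104 CPM in WT_D4 (log2 fold change -5.87 ± 0.45, adjusted p = 6.29e-05). Its neighbour Igf2, a growth-factor gene, had 26.1 and 86 CPM in S4KO_D4 and 1168 and 1365 CPM in S2/3DKO_D4, against 49.7 and 48.3 CPM in WT_D4 (log2 fold change -4.5 ± 0.47, adjusted p = 0.000288). Peg10, a retrotransposon-derived placental gene, had 298 and 458 CPM in S4KO_D4 and 7284 and 12295 CPM in S2/3DKO_D4, against 734 and 554 CPM in WT_D4 (log2 fold change -4.7 ± 0.37, adjusted p = 6.29e-05). In these 3, S2/3DKO_D4 was far above both other groups. Against WT_D4, 2 of the 24 were higher and 0 lower in S4KO_D4, beside 0.679% and 1.05% of all genes. In S2/3DKO_D4, 12 were higher and 3 lower than in WT_D4, beside 7.21% and 8% of all genes. Airn (-4.83 ± 0.84), whose reads may overlap those of Igf2r because the strand setting was not given, fell too. Grb10, an adaptor that restrains growth, had 150.2 and 186 CPM in S4KO_D4 and 15.4 and 17.4 CPM in S2/3DKO_D4, against 259 and 236 CPM in WT_D4 (log2 fold change 3.36 ± 0.33, adjusted p = 0.000202), with S2/3DKO_D4 the low group. The number lower was 9 without S4KO_D4 replicate 1, 10 without S4KO_D4 replicate 2, 10 without S2/3DKO_D4 replicate 1 and 10 without S2/3DKO_D4 replicate 2.

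Simple-epithelium keratins, which trophoblast also makes, fell within the epithelial list (1 higher and 6 lower of 18). The called share of that list was 38.9%, beside 12.3% of all genes tested. Krt7 had 4.12 and 6.22 CPM in S4KO_D4 and 197 and 197 CPM in S2/3DKO_D4, against 4.65 and 9.9 CPM in WT_D4 (log2 fold change -5.26 ± 0.78, adjusted p = 0.00197). Krt8 had 16.2 and 124 CPM in S4KO_D4 and 930.1 and 1134 CPM in S2/3DKO_D4, against 67.5 and 159.6 CPM in WT_D4 (log2 fold change -3.88 ± 0.85, adjusted p = 0.0142), and Krt18 (-3.5 ± 0.72) and Krt19 (-3.21 ± 0.69) fell with it. Cdh1, the E-cadherin gene on chromosome 8, rose with 931 and 1309 CPM in S4KO_D4 and 526 and 576 CPM in S2/3DKO_D4, against 778 and 868 CPM in WT_D4 (log2 fold change 1.02 ± 0.21, adjusted p = 0.00904), while Grhl2 (-1.01 ± 0.25) and the desmoplakin gene Dsp (-0.66 ± 0.19) fell. S4KO_D4 replicate 2 had the higher Krt8 of its pair, and both lay below S2/3DKO_D4. Krt19 was lost without S4KO_D4 replicate 1 (adjusted p = 0.0733) or S2/3DKO_D4 replicate 2 (0.0501). Cdh1 was lost without S4KO_D4 replicate 2 (0.0906), S2/3DKO_D4 replicate 1 (0.105) or 2 (0.0707), Grhl2 without S4KO_D4 replicate 1 (0.143), S4KO_D4 replicate 2 (0.0653) or S2/3DKO_D4 replicate 1 (0.222), and Dsp without any 1 of the 4 (up to 0.254).

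In the remaining lists the called share, beside 12.3% of all genes, was 35.7% for germ cell genes, 28.6% for mesenchyme, 25% for the 2-cell embryo, 18.2% for fibroblasts, 15.8% for hypoxia and glycolysis, 15% for cell cycle, 7.69% for LIF and STAT3 targets, 7.14% for Hox genes and 6.67% for p53 targets. The hypoxia and glycolysis list had 1 higher and 2 lower of 19, among them Ndrg1, a stress-response gene, with 105 and 74.2 CPM in S4KO_D4 and 508 and 635 CPM in S2/3DKO_D4, against 74.2 and 84.1 CPM in WT_D4 (log2 fold change -2.68 ± 0.30, adjusted p = 0.000483). Of that list Vegfa fell too and Ankrd37, on chromosome 8, rose. Of 20 cell cycle genes 3 rose (Mcm2, Mcm5 and Pcna) and 0 fell, of 15 p53 targets 1 fell (Btg2), and of 13 LIF and STAT3 targets 1 rose (Gbx2). Of 14 germ cell genes Prdm1 rose and Tfap2c, Mael, Sycp3 and Tex101 fell. Of 12 genes of the 2-cell embryo Tcstv3, Usp17la and Eif1a fell, and of 14 Hox genes tested, out of 23 listed, Hoxb1 rose. In the mesenchyme list Cdh2, Cdh11, Zeb2, Twist1 and Dcn rose and Postn fell of 21, and Dcn and Postn were the 2 called among 11 fibroblast markers. The cell cycle count was 0 when any 1 of the 4 libraries was left out. Apart from Ndrg1 and Postn, each gene of these lists lost its call without at least 1 of the 4 libraries, at adjusted p of 0.0526 (Vegfa, without S2/3DKO_D4 replicate 1) to 0.246 (Cdh11, without S4KO_D4 replicate 2).

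The naming rule picked the 12 largest rises and the 12 largest drops. Beside Hprt, Lefty1, Lefty2 and the Y-linked genes Eif2s3y, Uty and Ddx3y, the rises were those of Kcnj3, Flg, Gfra1, St6gal2, Gabra3 and Ildr2. Kcnj3, a potassium channel gene, had 8.17 and 46 CPM in S4KO_D4 and 0.347 and 0.458 CPM in S2/3DKO_D4, against 72.9 and 49.5 CPM in WT_D4 (log2 fold change 6.06 ± 0.79, adjusted p = 0.001). Gfra1, the co-receptor of the neurotrophic factor GDNF, had 5.72 and 14.7 CPM in S4KO_D4 and 0.314 and 0.165 CPM in S2/3DKO_D4, against 2.77 and 2.13 CPM in WT_D4 (log2 fold change 5.39 ± 0.57, adjusted p = 0.000288). Flg, the filaggrin gene, had 6.8 and 5.91 CPM in S4KO_D4 and 0.248 and 0.0367 CPM in S2/3DKO_D4, against 0.0369 and 0.0383 CPM in WT_D4 (log2 fold change 5.43 ± 0.77, adjusted p = 0.00209). Ildr2 gave 4.56 ± 0.70, St6gal2 5.27 ± 1.15 and Gabra3 4.68 ± 1.10 in log2 fold change. St6gal2 and Gabra3 were lost without S4KO_D4 replicate 2 (adjusted p = 0.0772 and 0.123), S2/3DKO_D4 replicate 1 (0.104 and 0.128) or S2/3DKO_D4 replicate 2 (0.117 and 0.141).

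Most of the 12 largest drops were genes with 0 counts in both S4KO_D4 libraries, for which a lower bound is set against 3 counts over the group. Olr1, a scavenger receptor gene, had 19.9 and 20.6 CPM in S2/3DKO_D4 and was at least 575-fold lower in S4KO_D4. Csf1r, the receptor for macrophage colony-stimulating factor that trophoblast also expresses, had 13.4 and 15.7 CPM there and was at least 411-fold lower. Postn, a matrix protein gene, was at least 288-fold lower. The bound was 480.2-fold for Serpinb9g, 301-fold for Serpinb9c, 279-fold for Serpinb9d, 248-fold for the placental cathepsin Ctsj, 161-fold for Prl2c5 and 146-fold for Prl7d1. Serpinb9f had 1 count in S4KO_D4 and a ratio of 1628-fold (95% counting interval 292 to 64320). Serpinb9e had 0.0566 and 0.0933 CPM in S4KO_D4, against 58.7 and 67.3 CPM in S2/3DKO_D4 (log2 fold change -9.74 ± 0.84, adjusted p = 0.000164), and Fam90a1b, an X-linked gene, had 0.0566 and 0.218 CPM in S4KO_D4, against 31.1 and 36.6 CPM in S2/3DKO_D4 (log2 fold change -8.07 ± 0.84, adjusted p = 0.000452). Bounds and counting intervals cover counting error only. WT_D4 was near 0 as well, at 0 and 0.0958 CPM for Olr1, 0 and 0.23 CPM for Csf1r and 0.166 and 0 CPM for Postn. It had 0.221 and 0.307 CPM for Serpinb9e, 0 and 0.0766 CPM for Serpinb9f and 0.0737 and 0.0958 CPM for Fam90a1b. The other drops had 0 CPM in WT_D4. For all 12, S2/3DKO_D4 was thus the high group. They passed the filter mostly through the S2/3DKO libraries, so their calls are a description. Prl7d1 was lost without S4KO_D4 replicate 1 (adjusted p = 0.082), S4KO_D4 replicate 2 (0.0773) or S2/3DKO_D4 replicate 2 (0.0926), and DESeq2 did not call Serpinb9c (0.121), Ctsj (0.132), Prl2c5 (0.162) or Prl7d1 (0.169).

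Part of the difference was already there before differentiation. At day 0, 1034 genes were called between S4KO_D0 and S2/3DKO_D0 (5.53%), 402 higher (2.15%) and 632 lower (3.38%). The genes higher on both days numbered 272, which is 24.9% of those higher at day 4 and 67.7% of those higher at day 0. The genes lower on both days numbered 445, which is 36.9% of those lower at day 4 and 70.4% of those lower at day 0. These 2 comparisons share no library, but both come from 1 fit whose filter and spread per gene were set over all 12 libraries. Their calls are therefore not independent. The count at day 0 was 412 without S4KO_D0 replicate 1, 632 without S4KO_D0 replicate 2, 1607 without S2/3DKO_D0 replicate 1 and 334 without S2/3DKO_D0 replicate 2. Pde1c, a phosphodiesterase gene singled out after its values were seen, was the 1 gene called in opposite directions, at 1.94 on day 4 and -2.31 on day 0, and its day 4 call was lost without any 1 of the 4 libraries (adjusted p up to 0.249). The trophoblast list had 14 of 26 lower at day 0, with a median log2 fold change of -3.35. BMP targets had 8 of 15 lower with a median of -2.001. Among Nodal and activin targets 3 of 14 were higher at day 0 with a median of 0.31, and Lefty1 (8.63 ± 0.95) and Lefty2 (6.56 ± 1.09) differed by day 0. The primed epiblast list had 1 higher and 1 lower at day 0.

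The difference between the days was tested as an interaction, and 1 gene passed (0.00535% of those tested), with 1392 at an unadjusted p below 0.05 and 246 called by DESeq2. Without S4KO_D4 replicate 1, 56 genes passed, and without S2/3DKO_D4 replicate 2, 2 genes. That gene was Gm47381, described with the results for a closer look. For Lama1, the difference was -0.54 ± 0.22 at day 0 and -2.45 ± 0.24 at day 4 (interaction -1.92 ± 0.32, adjusted p = 0.0946). Skil gave 0.21 ± 0.29 at day 0 and 1.7 ± 0.30 at day 4 (interaction adjusted p = 0.326), and Sox1 1.15 ± 0.54 and 4.19 ± 0.61 (adjusted p = 0.292). For these 3 genes a difference between the days did not pass the test.

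**Figure D4:**
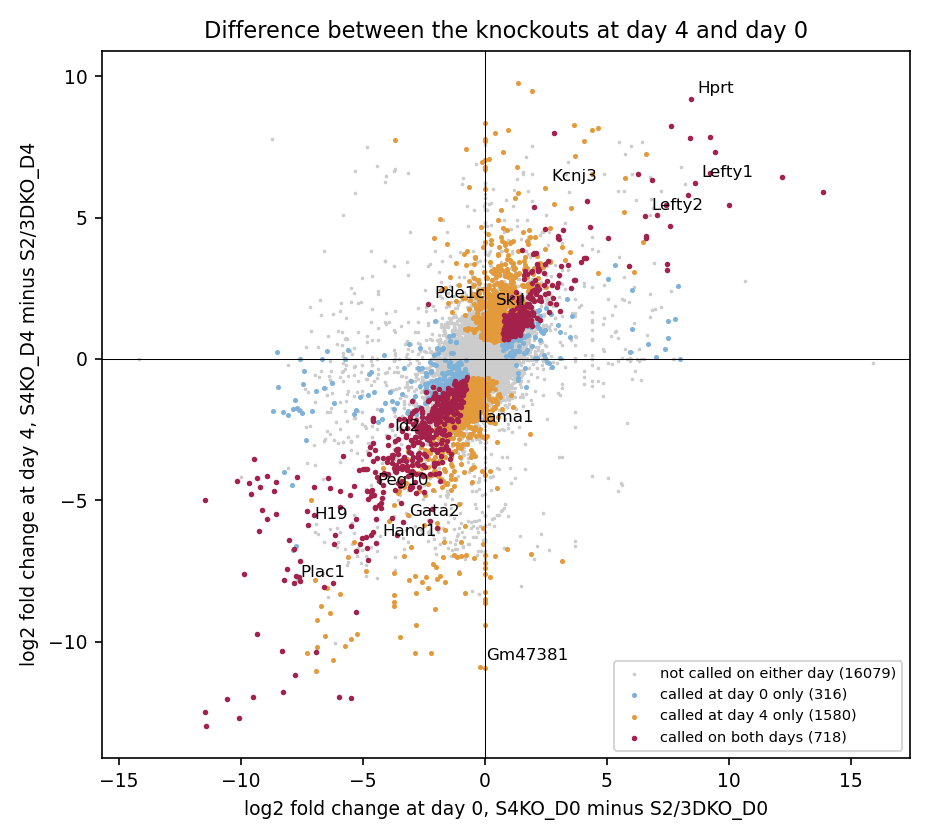
Log2 fold change of every gene tested at day 4 (S4KO_D4 minus S2/3DKO_D4, vertical) against that at day 0 (S4KO_D0 minus S2/3DKO_D0, horizontal); colours give the days on which a gene was called. Of the genes called on both days, 445 lie at lower left, 272 at upper right and Pde1c at upper left.

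Some whole chromosomes differed as well. Over genes averaging 1 CPM or more, the median log2 fold change on chromosome 8 was 0.67 at day 4 and 0.69 at day 0, and 203 of its 749 genes were called higher against 23 lower at day 4. Chromosome 19 gave 0.37 and 0.36, and chromosome 18 gave -0.36 and -0.44. Chromosome X gave -0.063 and -0.26, with 58 of 515 genes higher and 113 lower at day 4, and the 6 genes of chromosome Y gave 5.63 and 9.18. The other autosomes lay between -0.12 and 0.15 at day 4. Sox1, Smad1, Cdh1, Plat, Cdh5, Irx3 and Zfp42 lie on chromosome 8, and Smad2, Smad4, Cdh2, Csf1r and Gata6 on chromosome 18. The part of these shifts in the values of those genes was not tested. Without chromosomes 8, X and Y, 1735 genes were called.

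**Figure D5:**
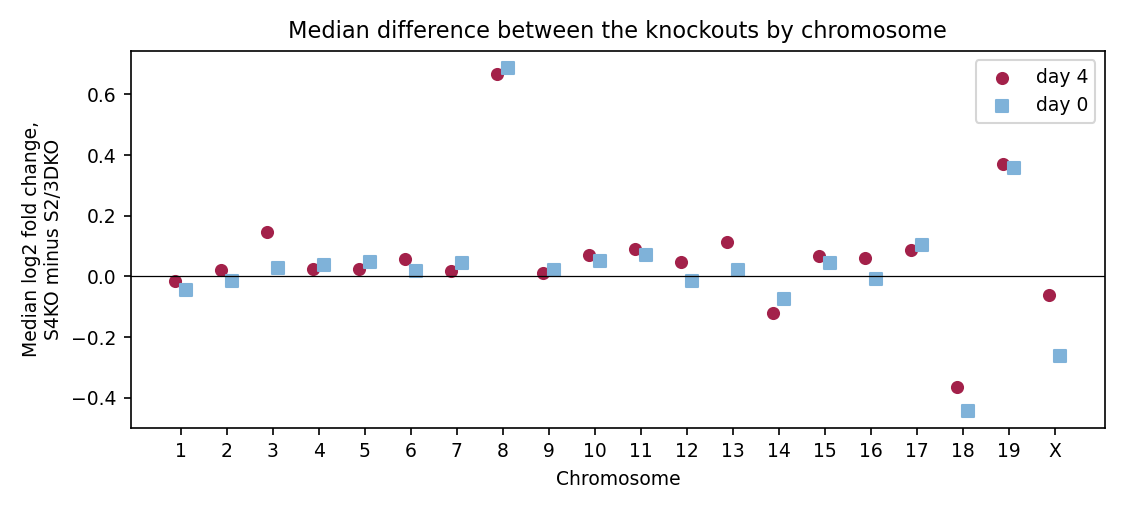
Median log2 fold change, S4KO minus S2/3DKO, of the genes of each chromosome at day 4 (circles) and day 0 (squares), over genes averaging 1 CPM or more. Chromosomes 8 and 19 lie above 0 and chromosome 18 below it on both days.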

How the data were processed

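Libraries of mouse embryonic stem cells and embryoid bodies came from the TruSeq RNA Sample Prep Kit v2, per the labels' protocols. The authors deposited whole-number counts per gene (32285 gene IDs, 32235 with a symbol here through the GENCODE M21 annotation, mm10) and FPKM values. Cufflinks, StringTie, DESeq2 and mm10 are named in the submitters' processing notes. No source used here gives aligner, versions or strand setting, so antisense and overlapping genes cannot be told apart.

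Counts of all 12 libraries (6 groups of 2) were fitted with edgeR 4.0.16 in R 4.3.3 (TMM scaling, filterByExpr, 1 coefficient per group, quasi-likelihood F test, Benjamini-Hochberg adjustment over 18693 genes, calls below 0.05). All adjusted p-values come from this fit unless another tool or setting is named. Those with a library left out, with no filter on low counts or with length and GC correction come from separate edgeR fits. The standard error is the log2 fold change divided by the square root of F. Alternatives used DESeq2 1.42.0 and limma 3.58.1 on log2(FPKM + 1) of the deposited FPKM. On simulated data with known changes, the fit recovered 8% of genes changed by 1 and 75% of those changed by 2 on the log2 scale (100 each), with 3 false among 86 calls over 18401 genes. Far fewer genes changed there than the 2298 called in the data. The adjustment is stricter when few genes change, so recovery in the data may differ from these shares.

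Named genes were, per direction, the 12 largest changes among called, non-overlapping genes of at least 5 CPM with an established name, the Smads, Ids, Leftys and Nodal, and for each list every called member up to 8, otherwise the 5 largest of at least 5 CPM. Uncalled members with the highest levels could be added. Members and lists were chosen with earlier results of these data known. Some members of the lists are counted but not reported by name here.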

Additional observations from a re-analysis of the deposited data

Results flagged for a closer look

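The difference between the days passed the test for 1 gene, Gm47381, a long intergenic non-coding RNA gene (chromosome 13, 91259376 to 91274954, mm10). It had 0 counts in both S4KO_D4 libraries and 4.57 and 4.97 CPM in S2/3DKO_D4, while the day 0 levels were 4.99 and 6.05 CPM in S4KO_D0, against 5.83 and 6.82 CPM in S2/3DKO_D0. WT_D4 had 5.31 and 7.53 CPM. S4KO_D4 was thus the single group of these without a count. The fitted difference of log2 fold changes between the days was -10.69 (edgeR's quasi-likelihood test, adjusted p = 0.00173), and its size depends on the prior count because 1 group is at 0. Groups of 2 libraries were too small for a test of outlying samples.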

How the results depend on the processing

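The number of genes called between S4KO_D4 and S2/3DKO_D4 was 4508 with those groups fitted alone, 3932 with length and GC correction and 632 to 1349 with 1 library left out. At day 0 it was 1592 with no filter on low counts, 2128 in DESeq2, 393 with those groups alone and 334 to 1607 with 1 library left out. The difference between the days gave 3 genes with RLE size factors, 3 with a filter of 1 CPM, 139 with no filter, 246 in DESeq2, 53 in limma on log2(FPKM + 1), 11 on log2(FPKM + 0.1), 151 on log2(FPKM + 1) with no filter and 1 to 56 with 1 library left out. S4KO_D4 against WT_D4 gave 754 with no filter, 1049 in DESeq2, 646 in limma with no filter, 128 with those groups alone, 78 to 578 with 1 library left out and 175 without the WT_D0 libraries, an alternative chosen after seeing the data. S2/3DKO_D4 against WT_D4 gave 868 to 3040 with 1 library left out. The causes were not tested. The share of day 4 calls that were higher was 47.5% in edgeR, 36.3% in limma on log2(FPKM + 1), 37.6% on log2(FPKM + 0.1) and 33.1% with no filter. With the replicate number as a block, 2240 genes were called at day 4, 945 at day 0 and 1 for the difference between the days, and against WT_D4 281 for S4KO_D4 and 2717 for S2/3DKO_D4. The labels give these numbers no shared source, and the replicate differences of S4KO_D4 and S2/3DKO_D4 correlated across genes at 0.119, so pairing was not used. Of 135 genes named, 0 values changed sign, 289 of 2243 single-gene values lost a call and 18 gained one. Uncalled in edgeR, Smad2 (0.0374), Nodal (0.0339), Id3 (0.022), Esrrb (0.0306) and Zfp42 (0.0364) had these adjusted p-values in DESeq2. With 2 libraries a group and the recovery of small changes on simulated data, a gene that did not pass is not shown to be alike in both knockouts.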
